A study of Mus musculus with 22 samples.

Results

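The nuclear-encoded subunits of oxidative phosphorylation were followed across 12 RNA-seq libraries of mouse embryonic stem cells. The genes were taken by symbol: Nduf genes of the a, b, c, s and v series for complex I, Sdha to Sdhd for complex II, Uqcr genes and Cyc1 for complex III, the Cox4 to Cox8 families for complex IV, and Atp5 genes for complex V. Of the 52535 symbols in each count table, 84 matched and 79 of these held at least 100 counts in total over the libraries. The 79 genes were 36 of complex I, 4 of complex II, 9 of complex III, 14 of complex IV and 16 of complex V. The complex was assigned by symbol alone. Whether each product is a subunit of that complex was not checked, as for Atp5sl under complex V. Members were thus chosen by symbol and by total count, and the totals are given only as a description. Just inside the minimum stood Cox4i2 with 162 counts and Ndufb2 with 397, and below it stood Cox7b2 with 81, Cox6a2 with 72, Cox8c with 29, Cox8b with 4 and Ndufs3 with 0.

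All libraries came from the E14 line, an embryonic stem cell line from mouse blastocysts. LIF and the pair of kinase inhibitors that hold these cells in the naive state, PD0325901 and CHIR99021, had been withdrawn from every group, and 2 µM retinoic acid (RA) had been given for 1 day. The groups were WT cells, E1-KO cells without the enhancer E1, E2-KO cells without the enhancer E2, and D-KO cells, each with 3 libraries; the labels do not spell out D-KO, which is read here as the deletion of both elements. The study asks what these elements do for HoxB expression and for the first steps of RA-induced differentiation. The series calls the libraries biological replicates, but the labels do not name separate cultures or clones, so the p-values below measure only the spread between these libraries, which may be technical. Every comparison with WT uses the same 3 WT libraries.

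Oxidative phosphorylation makes most of the ATP of a respiring cell at the inner mitochondrial membrane. Complexes I and II take electrons from NADH and succinate and pass them to ubiquinone, complex III passes them on to cytochrome c, and complex IV hands them to oxygen. Complexes I, III and IV pump protons, and the returning protons turn the rotor of complex V, the ATP synthase. Most subunits are encoded in the nucleus and must be matched by a small set encoded in mitochondrial DNA; complex II has nuclear subunits alone. Naive pluripotent stem cells use both respiration and glycolysis, and the balance shifts when they leave the naive state.

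The libraries held 9101547 to 13007735 counts. Markers of pluripotent cells were high in every genotype: Pou5f1, the gene for the pluripotency factor Oct4, averaged 787 CPM in WT (CPM, read counts scaled to a common library size) and 1187 to 1518 CPM in the KO genotypes. Of 6 fibroblast markers 2 were high enough to be tested: Thy1, which other cells carry too, averaged 2.04 CPM in WT and 3.82 to 4.84 CPM in the KO genotypes, with a rise called in E1-KO and E2-KO (edgeR adjusted p = 0.0260 and 0.0103), and Col1a1 averaged 2.69 CPM in WT and 1.47 to 2.57 CPM in the KO genotypes. The other 4 averaged at most 0.606 CPM in any genotype, and the summed level of the 2 tested markers ran from 3.09 to 8.03 CPM. The summed level of 6 pluripotency markers was 2219 to 4462 CPM in WT, 5934 to 6269.9 for E1-KO, 5408 to 5909 for E2-KO and 4358 to 4531 for D-KO. That of 6 primitive endoderm markers was 315 to 354 CPM in WT, 129 to 140 for E1-KO, 195 to 205 for E2-KO and 202 to 209 for D-KO, and that of 4 early neural markers was 34.0 to 58.1 CPM in WT, 50.4 to 54.7 in E1-KO and E2-KO and 78.0 to 88.9 in D-KO. Most of the neural sum was Tubb3, with means of 24.8 CPM in WT, 35.1 for E1-KO, 36.9 for E2-KO and 59.6 for D-KO, whereas Pax6 went the other way, from 3.89 CPM in WT to 0.254, 0.538 and 1.41; of the 4 markers 1 was called lower in each comparison with WT, and 2, 1 and 2 were called higher. In bulk RNA, fewer cells of a type and less RNA per cell cannot be told apart. The share of these marker differences in the values of the respiratory genes was not tested.

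The WT libraries stood far apart from one another for the respiratory genes, more than the KO libraries did. Relative level is given here as log2(CPM + 0.5) minus the gene's mean over the 12 libraries, where CPM is scaled by TMM, the trimmed mean of M values. The median relative level of the 79 genes was -0.13 in WT replicate 1, 0.14 in replicate 2 and -0.77 in replicate 3, whereas it lay between 0.02 and 0.21 in the 9 KO libraries. WT replicate 3 was the lowest of all 12 libraries for 56 of the 79 genes (70.9%), and for 24.8% of all 16765 genes tested. The median SD of log2 CPM over 3 libraries was 0.51 in WT and 0.091 within the KO genotypes, and 74 of the 79 genes spread more in WT; over all genes tested the medians were 0.35 and 0.14.

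In WT replicate 3 the shorter transcripts stood lower than the longer ones. Respiratory subunits are mostly small proteins, and the principal transcript in GENCODE M21 had a median length of 849.5 nt for the 78 annotated genes against 2681 nt for all genes tested; the median GC content was 51.6% against 50.4%. Below 600 nt, all 19 genes had their lowest level in WT replicate 3, a median of 3.78-fold below the mean of the other WT libraries. Between 600 and 1000 nt the median was 1.81-fold and 24 of 28 genes were lowest there. Above 1000 nt the median was 1.10-fold and 12 of 31 genes were lowest there. Atp5k, the small e subunit of ATP synthase with 371 nt, stood at 4.12, 23.7 and 0.594 CPM in WT replicates 1 to 3. Atp5a1, the catalytic-head alpha subunit with 2471 nt, stood at 783, 982 and 1030 CPM there.

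**Figure D1:**
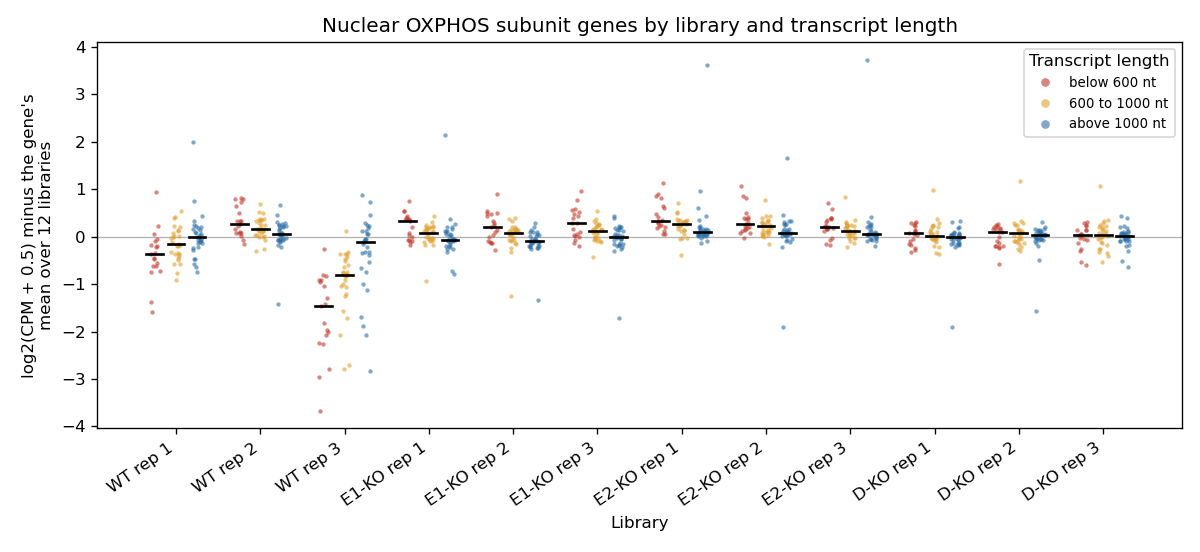
Relative level of each respiratory subunit gene (points; log2(CPM + 0.5) minus the gene's mean over 12 libraries) in each library, split by transcript length into below 600 nt, 600 to 1000 nt and above 1000 nt; black bars are medians. In WT replicate 3 the 3 medians are -1.47, -0.80 and -0.10, while in the D-KO libraries all of them lie between -0.01 and 0.09.

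Across the 78 genes the rank correlation of relative level with length was 0.65 in WT replicate 3, 0.35 in WT replicate 1 and -0.37 in WT replicate 2. It was -0.50 to -0.40 in the E1-KO libraries, -0.49 to -0.28 in the E2-KO libraries and -0.12 to -0.03 in the D-KO libraries. These are descriptions across genes of the same libraries, and genes are not independent replicates. Over all genes tested the correlation with length was 0.32 in WT replicate 3, 0.14 in WT replicate 1 and -0.07 in WT replicate 2. Against GC content the all-gene values were further from zero: -0.45, -0.58 and 0.14, in that order of libraries. Among the 78 respiratory genes GC content gave -0.24, -0.49 and 0.10. For these genes the GC trend was thus weaker than the length trend in WT replicates 3 and 2, and stronger in WT replicate 1. Whether RNA quality or library preparation differed was not tested, and the labels name no batch.

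**Figure D2:**
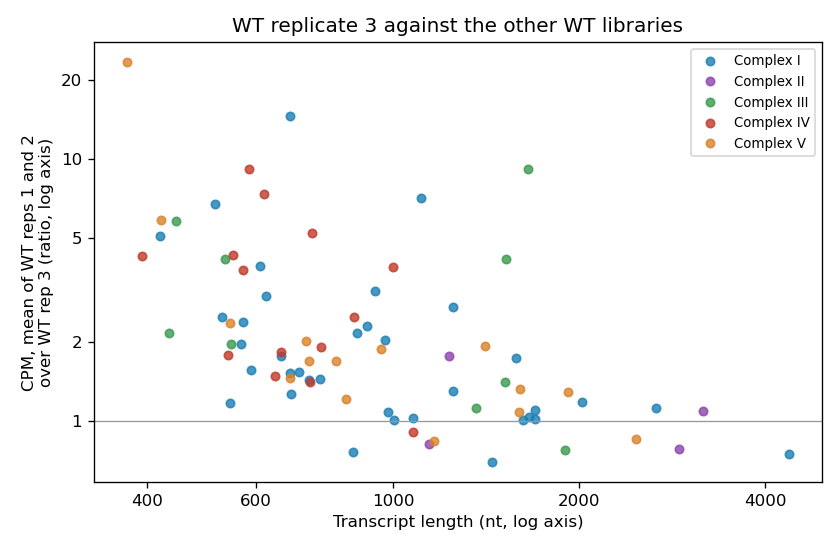
Ratio of the mean CPM of WT replicates 1 and 2 to the CPM of WT replicate 3 (log axis) against transcript length in nt (log axis), 1 point per gene, coloured by complex. The ratios reach 23.4 for Atp5k among the short transcripts and run from 0.70 to 9.15 above 1000 nt.

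The ATP synthase took the largest share of the counts. The 79 genes took 0.591% of counts in WT replicate 3, 0.830% in WT replicate 1 and 0.901% to 1.03% in the other 10 libraries. Complex V took 0.312% of counts in WT replicate 3 and 0.400% to 0.458% elsewhere. Complex IV took 0.0595% in WT replicate 3, 0.140% in WT replicate 1 and 0.166% to 0.198% in the others. Complex II, with its longer transcripts, took 0.0386% to 0.0485% in all 12 libraries.

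Per kilobase of transcript, Atp5b, the catalytic beta subunit of the ATP synthase, had the highest level of all, a mean of 923 CPM per kb over the 12 libraries. Cox4i1, a regulatory subunit of cytochrome c oxidase, followed with 465 CPM per kb, Cox7c, a small subunit of the same enzyme, with 463, and Atp5a1 with 385. In complex I the highest were the small accessory subunit gene Ndufa7 with 186 CPM per kb and Ndufa4 with 181; the Ndufa4 protein is now counted with complex IV in spite of its name. In complex III Uqcr10 led with 178 CPM per kb and Uqcrb with 157, both small structural subunits. In complex II Sdha, the flavoprotein that oxidises succinate, had 78.1 CPM per kb and the membrane anchor Sdhd 57.1. Levels per kb rest on 1 reference transcript per gene and include the low values of short genes in WT replicate 3.

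Against WT, the share of respiratory genes that passed the test lay below the share of all genes when all 12 libraries were fitted. It was close to that share when WT replicate 2 was left out. A gene counts as called when the quasi-likelihood test of edgeR, adjusted over all 16765 genes by the method of Benjamini and Hochberg, gave a p under 0.05. In simulated counts of E2-KO against WT this fit also called 88 unchanged genes. The adjusted p-values against WT printed below may therefore be too small. In E1-KO 11 of the 79 genes were called, beside 34.2% of all genes; 6 were higher (all genes 15.7%) and 5 lower (18.5%). In E2-KO 15 were called, beside 35.3% of all genes; 14 were higher (16.7%) and 1 lower (18.6%). In D-KO 9 were called, beside 22.8% of all genes; 8 were higher (10.6%) and 1 lower (12.2%). The called shares of the respiratory genes were 13.9%, 19.0% and 11.4%. Genes with all 3 KO libraries above all 3 WT libraries numbered 10 for E1-KO, 21 for E2-KO and 15 for D-KO, beside 21.0%, 21.2% and 16.6% of all genes. Those with all KO libraries below numbered 6, 1 and 3, beside 20.1%, 19.7% and 16.2%.

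The median log2 fold change of the 79 genes was 0.22 for E1-KO, 0.32 for E2-KO and 0.15 for D-KO, and the medians over all genes were -0.01, 0.00 and -0.02. Without WT replicate 3 the medians of the respiratory genes were 0.02, 0.13 and -0.05, and the calls were 13 (5 higher, 8 lower), 15 (13 and 2) and 10 (7 and 3), beside 33.9%, 32.6% and 23.8% of all genes. Without WT replicate 2 the calls were 43, 46 and 32, or 54.4%, 58.2% and 40.5% of the respiratory genes, beside 51.1%, 51.9% and 40.9% of all genes. Without WT replicate 1 the calls were 5, 11 and 8, beside 28.3%, 30.2% and 23.4%. Leaving out E1-KO replicate 1, 2 or 3 gave 3, 5 and 4 calls in E1-KO, and leaving out any 1 library of E2-KO or D-KO gave 6 there. Leaving out E2-KO replicate 1, 2 or 3 gave 7, 8 and 10 calls in E2-KO, and leaving out D-KO replicate 1, 2 or 3 gave 4, 4 and 2 calls in D-KO. The share of all genes called is not given for these fits without a KO library. Their counts are therefore not to be read as particular to the respiratory genes. Once the fit allowed for GC content and transcript length, the splits were 4 higher and 9 lower for E1-KO, 9 and 7 for E2-KO, and 3 and 6 for D-KO, beside 32.5%, 30.8% and 26.6% of all genes. That fit made 4 of the 11 calls in E1-KO, 7 of the 15 in E2-KO and 4 of the 9 in D-KO. Fits of only the 6 libraries compared made 1, 2 and 1 of them, beside 15.9%, 16.0% and 9.09% of all genes called: Ndufa9 in E1-KO and E2-KO, Ndufb9 in E2-KO and Ndufa10 in D-KO. Every other call of a respiratory gene against WT was lost in those fits of 6 libraries. Scaling by library totals alone gave 5 higher and 2 lower for E1-KO, 13 and 1 for E2-KO, and 3 and 1 for D-KO, beside 32.5%, 33.2% and 21.7%; it moved the median log2 fold change of all genes in E1-KO to 0.10.

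**Figure D3:**
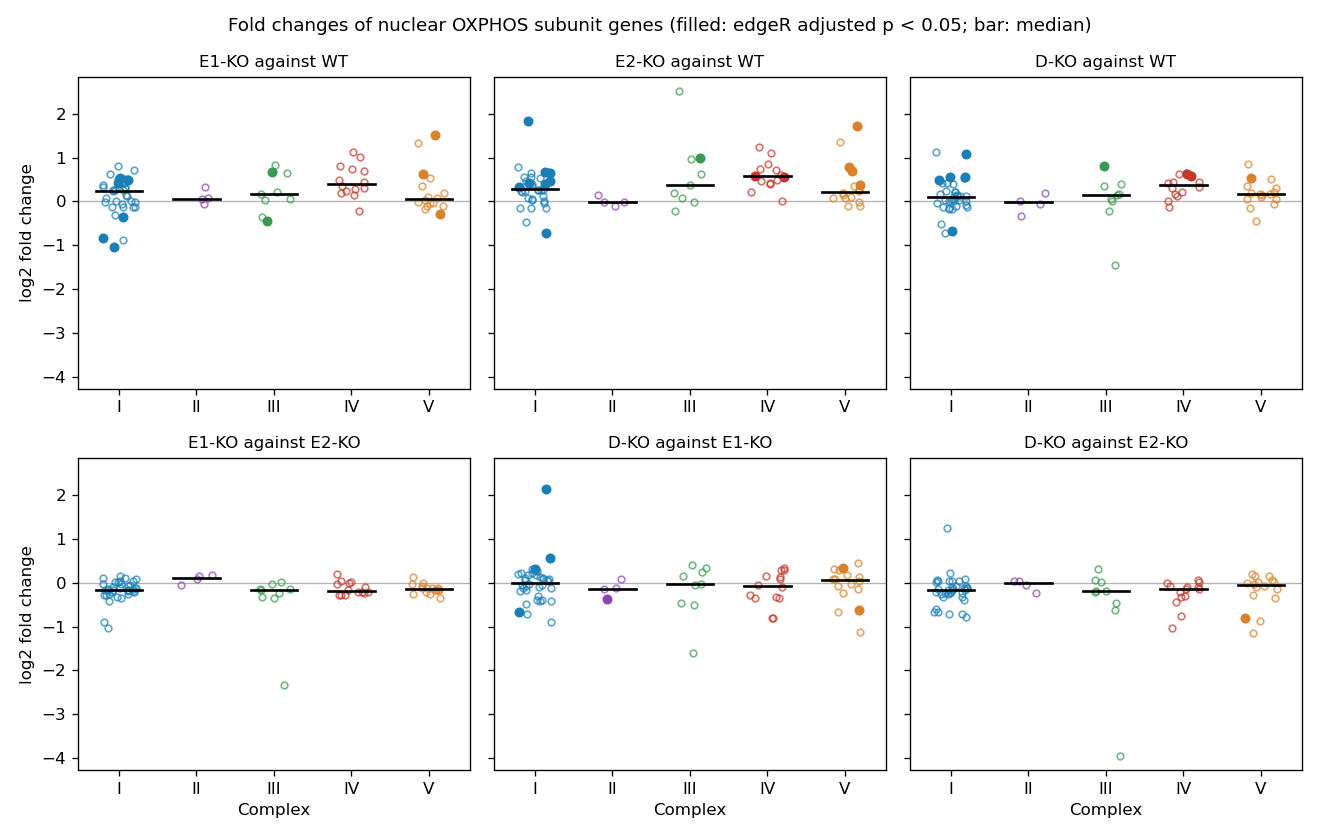
Log2 fold changes of the 79 genes by complex in the 6 comparisons; filled points passed at an edgeR adjusted p below 0.05 and black bars are medians of a complex. Against WT the medians of complex IV are 0.41 (E1-KO), 0.57 (E2-KO) and 0.37 (D-KO), above those of complex II at 0.06, -0.01 and -0.02.

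In complex I, 3 of 36 genes rose and 3 fell in E1-KO, 7 rose and 1 fell in E2-KO, and 4 rose and 1 fell in D-KO. Ndufa9 (ENSMUSG00000000399.10, chr6:126821721-126849136 on the minus strand of GRCm38) encodes an accessory subunit at the joint of the matrix arm and the membrane arm, close to the ubiquinone site. It stood at 115, 132 and 177 CPM in WT, 79.5, 80.2 and 77.2 for E1-KO, 87.3, 88.1 and 83.5 for E2-KO, and 87.4, 87.1 and 92.4 for D-KO. All 9 KO libraries lay below all 3 WT libraries. Its log2 fold change was -0.84 ± 0.13 (SE) for E1-KO, -0.71 ± 0.13 for E2-KO and -0.67 ± 0.13 for D-KO, with edgeR adjusted p of 0.000318, 0.00116 and 0.00254. The fall was called in each of the 12 fits that leave out 1 library, with adjusted p of at most 0.00306, 0.00812 and 0.0162, and in the fit that allowed for GC content and length; with the 6 libraries alone the D-KO call was lost (0.0550). Unlike most of the genes Ndufa9 had its highest WT level in replicate 3. Exons of 1700018A23Rik on the opposite strand cover 3.19% of its exonic bases.

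Ndufb8 (chr19:44548572-44555440), an accessory subunit of the membrane arm, was called higher in all 3 comparisons with WT. Its levels were 26.8, 32.6 and 19.4 CPM in WT, 38.4, 38.4 and 37.1 for E1-KO, 38.1, 34.1 and 37.9 for E2-KO, and 35.6, 36.5 and 44.1 for D-KO, with every KO library above every WT library. The log2 fold changes were 0.52 ± 0.16 for E1-KO, 0.47 ± 0.16 for E2-KO and 0.55 ± 0.16 for D-KO (edgeR adjusted p = 0.0209, 0.0330 and 0.0223). Leaving out E1-KO replicate 1 or 2 ended the call in E1-KO (adjusted p of at most 0.0599). In E2-KO it was lost without WT replicate 1 or 3 or any E2-KO library (at most 0.0942), with a log2 fold change of 0.30 without WT replicate 3. The D-KO call was lost when its replicate 3 was left out (0.104). All 3 calls were lost once the fit allowed for GC content and transcript length, with log2 fold changes of 0.14, 0.04 and 0.25. Exons of Gm20538 on the same strand cover 4.26% of its exonic bases.

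Ndufa10, an accessory subunit of the membrane arm with the fold of a nucleoside kinase, differed in level among the KO genotypes too. It stood at 114, 103 and 91.5 CPM in WT, 100.4, 100.9 and 107 for E1-KO, 123, 125 and 138 for E2-KO, and 148, 147 and 157 for D-KO. WT and E1-KO overlapped, E2-KO lay above both and D-KO above all. The steps from E1-KO to E2-KO and from E2-KO to D-KO were not called, the latter at a log2 fold change of 0.23. The gene rose by 0.55 ± 0.10 in D-KO against WT and by 0.32 ± 0.10 in E2-KO against WT (edgeR adjusted p = 0.00174 and 0.0266). The D-KO rise was called in each of the 12 fits without 1 library, and the E2-KO rise was lost without any 1 of the E2-KO libraries (adjusted p of at most 0.104) and with the allowance for GC content and length (0.18, adjusted p = 0.123).

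Among the core subunits of complex I, which carry the electron path, Ndufs7 and Ndufv2 were called against WT. Ndufs7, which holds the last iron-sulfur cluster before ubiquinone, rose by 0.42 ± 0.14 in E2-KO and 0.49 ± 0.14 in D-KO (edgeR adjusted p = 0.0325 and 0.0223), from 33.1, 50.6 and 38.6 CPM in WT to 54.4, 58.3 and 51.6 in E2-KO and 58.2, 55.0 and 59.0 in D-KO. Both calls were lost without WT replicate 1 (log2 fold changes 0.29 and 0.35), and the values turned to -0.25 and 0.03, without a call, once the fit allowed for GC content and transcript length. The calls were also lost without WT replicate 3 or any E2-KO library in E2-KO, and without any D-KO library in D-KO (adjusted p of at most 0.108 and 0.0711). Ndufv2, an iron-sulfur subunit of the NADH-oxidising module, fell by 0.35 in E1-KO with overlapping libraries (120, 84.9 and 92.7 CPM in WT, 70.6, 77.0 and 85.7 in E1-KO; adjusted p = 0.0452), a call that was lost in 10 of the 12 fits without 1 library, with a log2 fold change of -0.18 without WT replicate 1 and -0.0099 with the allowance for GC content and length. Ndufs1, Ndufs8 and Ndufv1, which carry further iron-sulfur clusters and the NADH site, were not called against WT, with log2 fold changes from -0.13 to 0.34.

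Ndufs8 showed how even a core subunit could be: its WT libraries held 50.4, 50.7 and 50.1 CPM. The largest called rise of complex I against WT was that of Ndufa12, an accessory subunit of the matrix arm, in E2-KO. It stood at 9.36, 14.2 and 1.66 CPM in WT and at 29.8, 48.7 and 15.6 CPM in E2-KO, a log2 fold change of 1.85 ± 0.56 (edgeR adjusted p = 0.0249). The call was lost without WT replicate 1, E2-KO replicate 1 or E2-KO replicate 2 (adjusted p of at most 0.0915), and the log2 fold change was 1.39 without E2-KO replicate 2. The E2-KO libraries lay far apart from one another, and E1-KO libraries ran from 8.91 to 19.8 CPM. Ndufb9 and Ndufa6, a pair of LYR-motif accessory subunits, and the membrane arm subunit Ndufc2 were called as well and are named for that reason after their values were seen. Ndufb9 rose by 0.50 ± 0.14 in E1-KO and 0.65 ± 0.14 in E2-KO, Ndufa6 by 0.67 ± 0.17 in E2-KO, and Ndufc2 by 0.41 ± 0.15 in both (edgeR adjusted p = 0.0153, 0.00315, 0.00863, 0.0435 and 0.0451). The E2-KO calls of Ndufb9 and Ndufa6 were made in each of the 12 fits without 1 library, the E1-KO call of Ndufb9 was lost without E1-KO replicate 1 or 3 (adjusted p of at most 0.0589), and each Ndufc2 call was lost in 11 of the 12 fits, which gave log2 fold changes of 0.31 to 0.62 in E1-KO and 0.30 to 0.62 in E2-KO. With the allowance for GC content and length both Ndufb9 calls were lost, at 0.085 for E1-KO and 0.19 for E2-KO, and the Ndufa6 value was 0.36 and still called. Exons of Gm49356 on the same strand cover 19.5% of the exonic bases of Ndufb9.

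In complex II none of the 4 genes was called against WT, in either direction. This enzyme also belongs to the tricarboxylic acid cycle. Sdha stood at 206, 208 and 263 CPM in WT and between 216 and 246 CPM in the KO libraries. Sdhc, a membrane anchor, had log2 fold changes of -0.06 ± 0.10, -0.01 ± 0.10 and 0.02 ± 0.10 in E1-KO, E2-KO and D-KO. Sdhd ran from 41.0 to 81.3 CPM in WT, with the KO libraries at 65.3 to 79.8 CPM inside that range. Sdhb, the iron-sulfur subunit, stood at 56.9, 68.7 and 76.5 CPM in WT and 55.1, 54.3 and 50.8 in D-KO, a log2 fold change of -0.33 ± 0.12 that missed the threshold (edgeR adjusted p = 0.0504) although the libraries did not overlap.

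In complex III, Uqcr10 (chr11:4701973-4704342), a small subunit next to the Rieske protein and cytochrome c1, rose in all 3 KO genotypes. It stood at 44.1, 74.2 and 27.3 CPM in WT, 75.5, 75.0 and 82.6 for E1-KO, 98.7, 97.1 and 96.1 for E2-KO, and 90.0, 82.1 and 85.3 for D-KO. All KO libraries lay above all WT libraries, in E1-KO by a narrow margin over WT replicate 2. The log2 fold changes were 0.67 ± 0.24, 0.99 ± 0.24 and 0.81 ± 0.24 (edgeR adjusted p = 0.0430, 0.00618 and 0.0250). The E2-KO call was made in each of the 12 fits without 1 library; the E1-KO call was lost in 11 of them, and its log2 fold change was 0.39 without WT replicate 3 and 1.12 without WT replicate 2. The D-KO call was lost without WT replicate 1 or any D-KO library (adjusted p of at most 0.0773), and its log2 fold change was 0.52 without WT replicate 3 and 1.26 without WT replicate 2. With the allowance for GC content and length the values were 0.29, 0.57 and 0.53, and the E1-KO call was lost (adjusted p = 0.0837).

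Uqcrc2, a core protein of complex III on the matrix side, fell in E1-KO against WT. It stood at 159, 130.0 and 185 CPM in WT and at 117, 115 and 114 CPM in E1-KO, with no overlap, a log2 fold change of -0.46 ± 0.12 (edgeR adjusted p = 0.00908) called in each of the 12 fits without 1 library. The call was lost once the fit allowed for GC content and transcript length (-0.20, adjusted p = 0.124) and in the fit of the 6 libraries alone (-0.45, adjusted p = 0.0915). In E2-KO and D-KO the log2 fold changes were -0.22 ± 0.12 and -0.21 ± 0.12 (adjusted p = 0.162 and 0.215), and the difference between E1-KO and E2-KO, -0.24 ± 0.12, was not called (adjusted p = 0.499). Exons of Pdzd9 on the opposite strand cover 19.7% of the exonic bases of Uqcrc2. The catalytic subunits Cyc1 (cytochrome c1) and Uqcrfs1 (the Rieske iron-sulfur protein) were not called, with log2 fold changes against WT from 0.00 to 0.38. Uqcrb lay far apart in the WT libraries, at 153, 84.1 and 28.4 CPM, and at 65.4 to 98.4 CPM in the KO libraries.

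In complex IV, no gene was called in E1-KO, and Cox4i1 and Cox7c alone were called in E2-KO and in D-KO. Cox4i1 (chr8:120668222-120674207) stood at 302, 343 and 168 CPM in WT, 339, 327 and 338 for E1-KO, 407, 403 and 413 for E2-KO, and 406, 413 and 407 for D-KO. The E2-KO and D-KO libraries lay above all WT and E1-KO libraries, and E1-KO overlapped WT. The rises were 0.59 ± 0.18 in E2-KO and 0.59 ± 0.18 in D-KO (edgeR adjusted p = 0.0236 and 0.0324), and the E1-KO value of 0.30 ± 0.18 was not called (adjusted p = 0.215). Each call was lost without any 1 library of its KO genotype (adjusted p of at most 0.0612 and 0.0903), the log2 fold changes were 0.33 and 0.33 without WT replicate 3, and the values were -0.0099 and 0.18, without a call, once the fit allowed for GC content and transcript length. Exons of Emc8 on the opposite strand cover 9.94% of its exonic bases.

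Cox7c (chr13:86044816-86046904) stood at 230.0, 218 and 126 CPM in WT, 229, 228 and 243 for E1-KO, 282, 275 and 287 for E2-KO, and 291, 292 and 301 for D-KO. Here too the E2-KO and D-KO libraries lay above all others, by 0.55 ± 0.17 and 0.62 ± 0.17 against WT (edgeR adjusted p = 0.0198 and 0.0158). The E2-KO call was lost without E2-KO replicate 1 or 3 (adjusted p of at most 0.0548) and the D-KO call without D-KO replicate 3 (0.0518), and the log2 fold changes were 0.32 and 0.39 without WT replicate 3. The other 12 genes of complex IV had log2 fold changes up to 1.14 for E1-KO, 1.25 for E2-KO and 0.65 for D-KO without passing. Cox6b1, the subunit that clamps the dimer on the intermembrane side, belonged to this group with 96.9, 95.4 and 13.1 CPM in WT and 94.1 to 119 CPM in the KO libraries.

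In complex V, 2 of 16 genes rose and 1 fell in E1-KO, 4 rose in E2-KO and 1 rose in D-KO. Atp5g2 (chr15:102662864-102672352) is one of the genes for subunit c of the membrane ring; these genes encode the same mature protein, and how reads shared between near-identical copies were counted is not given, so its count is uncertain to that extent. It stood at 63.8, 97.8 and 47.8 CPM in WT, 107, 106 and 110.1 for E1-KO, 112, 120.4 and 109 for E2-KO, and 100.4, 106 and 100.3 for D-KO, with every KO library above every WT library. The log2 fold changes were 0.62 ± 0.18, 0.70 ± 0.18 and 0.55 ± 0.18 (edgeR adjusted p = 0.0184, 0.00976 and 0.0446). The E2-KO call was made in each of the 12 fits without 1 library, the E1-KO call was lost without WT replicate 1 or E1-KO replicate 3 (adjusted p of at most 0.0635), and the D-KO call was lost in 11 of the 12 fits. Without WT replicate 3 the D-KO value was 0.33, and without WT replicate 2 the E1-KO and D-KO values were 0.94 and 0.87. None of the 3 calls was made once the fit allowed for GC content and transcript length, with log2 fold changes of 0.18, 0.19 and 0.20 (adjusted p = 0.0827, 0.0706 and 0.0681).

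Atp5e (chr2:174461072-174464105), the epsilon subunit at the foot of the rotor stalk, had the largest called rise against WT in E1-KO. It stood at 6.48, 18.6 and 2.14 CPM in WT, 26.1, 24.9 and 30.4 for E1-KO, 33.4, 31.6 and 29.1 for E2-KO, and 19.6, 16.0 and 16.0 for D-KO. The rises were 1.52 ± 0.46 in E1-KO and 1.73 ± 0.46 in E2-KO (edgeR adjusted p = 0.0239 and 0.0131), and the D-KO libraries overlapped WT (0.86 ± 0.47, adjusted p = 0.207). The E2-KO call was made in each of the 12 fits without 1 library, and the E1-KO call was lost without WT replicate 1, E1-KO replicate 1 or E1-KO replicate 3 (adjusted p of at most 0.0725). At 421 nt it is among the shortest transcripts, and without WT replicate 3 its log2 fold changes were 1.08 in E1-KO and 1.28 in E2-KO; without WT replicate 2 they were 2.62 and 2.83. Both calls were made with the allowance for GC content and length, and neither with the 6 libraries alone (adjusted p = 0.0913 and 0.0637).

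Atp5d, the delta subunit of the stalk, rose by 0.79 ± 0.24 in E2-KO (77.3, 154 and 59.8 CPM in WT, 177, 166 and 163 in E2-KO; edgeR adjusted p = 0.0223), a call that was lost without WT replicate 1 or 3 or E2-KO replicate 1 or 2 (adjusted p of at most 0.0891) and whose log2 fold change was 1.30 without WT replicate 2 and 0.24, not called, with the allowance for GC content and length. Atp5c1, the gamma subunit that forms the shaft, moved the other way in E1-KO: 206, 184 and 232 CPM in WT and 171, 171 and 170 in E1-KO, a log2 fold change of -0.28 ± 0.10 (adjusted p = 0.0454) that was lost in 11 of the 12 fits without 1 library and with that allowance. Atp5o, the stator subunit that ties the head to the peripheral stalk and a further gene named for its call, rose by 0.38 ± 0.11 in E2-KO (138, 154 and 120 CPM in WT, 173, 183 and 181 in E2-KO; adjusted p = 0.0133), in each of the 12 fits. The Atp5o call was lost with the same allowance, at 0.04 (adjusted p = 0.709), and with the 6 libraries alone (adjusted p = 0.119). Exons of other entries, among them a further one named Atp5o, cover 12.3% of its exonic bases on the same strand and 35.6% on the opposite strand. The catalytic pair Atp5b and Atp5a1 was not called in any of the 6 comparisons, with log2 fold changes of -0.03 to 0.17 against WT.

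**Figure D4:**
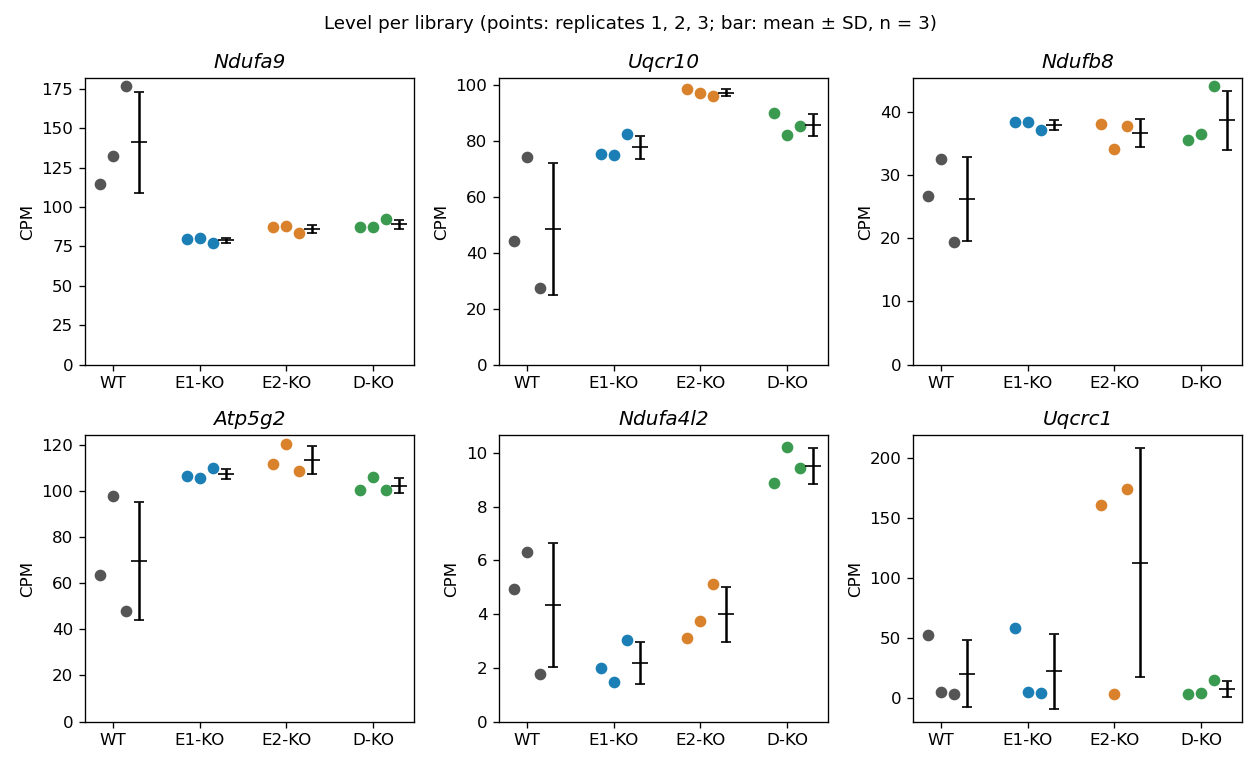
CPM in each library for Ndufa9, Uqcr10, Ndufb8, Atp5g2, Ndufa4l2 and Uqcrc1 (points are replicates 1 to 3 from left to right; bars are the mean ± SD, n = 3). All 9 KO libraries lie below WT for Ndufa9 and above WT for Uqcr10, Ndufb8 and Atp5g2, D-KO stands alone for Ndufa4l2, and Uqcrc1 differs between libraries of 1 genotype.

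The promoters of some genes that were called against WT were set side by side as a description. Whether promoters take part in any of the differences was not tested. Windows of 300 bases, from 250 before to 50 after the start, came from RefSeq on GRCm38.p6 and matched 65 of the 79 genes (71 windows). Each was searched on both strands for GCGCATGC (NRF1, nuclear respiratory factor 1), CCGGAAG (ETS factors such as GABPA, also called NRF2), AAGATGGCG (YY1) and TCAAGGTCA (ERR, the estrogen-related receptors), factors known to act on respiratory genes. Capitals mark the matches in the windows of Ndufa9 (chr6:126849095-126849394), the gene that fell in all 3 KO genotypes, of Atp5g2 (chr15:102670998-102671297) and Uqcr10 (chr11:4704295-4704594), which rose in all 3 as Ndufb8 did, and of Atp5e (chr2:174464052-174464351), which rose in E1-KO and E2-KO; all 4 are on the minus strand and are written 5′ to 3′ in the direction of the gene.
Ndufa9: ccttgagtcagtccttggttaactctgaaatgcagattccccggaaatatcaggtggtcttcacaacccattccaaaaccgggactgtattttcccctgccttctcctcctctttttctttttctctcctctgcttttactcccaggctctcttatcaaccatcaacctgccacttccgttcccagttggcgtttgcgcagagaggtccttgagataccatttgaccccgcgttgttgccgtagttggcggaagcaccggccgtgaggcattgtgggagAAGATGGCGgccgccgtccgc
Atp5g2: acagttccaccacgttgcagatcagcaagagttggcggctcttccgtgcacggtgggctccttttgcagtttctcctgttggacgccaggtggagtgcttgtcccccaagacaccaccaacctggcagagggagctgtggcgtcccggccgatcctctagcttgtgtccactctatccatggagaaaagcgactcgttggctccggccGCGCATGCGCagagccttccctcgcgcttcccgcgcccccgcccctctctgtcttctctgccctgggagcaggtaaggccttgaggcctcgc
Uqcr10: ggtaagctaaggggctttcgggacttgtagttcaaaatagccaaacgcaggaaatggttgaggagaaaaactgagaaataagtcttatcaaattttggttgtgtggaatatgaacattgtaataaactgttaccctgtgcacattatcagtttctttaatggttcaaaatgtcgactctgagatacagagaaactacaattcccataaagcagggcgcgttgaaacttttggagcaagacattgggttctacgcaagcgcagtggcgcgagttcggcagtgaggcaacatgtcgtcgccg
Atp5e: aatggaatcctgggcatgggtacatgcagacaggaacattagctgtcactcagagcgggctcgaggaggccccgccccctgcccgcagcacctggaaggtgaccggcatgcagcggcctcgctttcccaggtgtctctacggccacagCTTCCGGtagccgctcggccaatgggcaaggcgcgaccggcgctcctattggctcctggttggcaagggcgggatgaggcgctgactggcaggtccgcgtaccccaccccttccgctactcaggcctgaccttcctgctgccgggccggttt

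Ndufa9 holds the YY1 letters 29 bases after its start, Atp5g2 holds a pair of overlapping NRF1 matches that begin 42 bases before the start, and Atp5e holds the ETS letters on the opposite strand 102 bases before the start. The window of Uqcr10 holds none of the 4, nor does that of Ndufb8, which is not printed; this says only that these letters are not in these windows. Over all windows the NRF1 letters stood in 14.1% of the 71 respiratory windows and in 2.71% of all 32851 windows in the table, the ETS letters in 21.1% and 8.86%, the YY1 letters in 12.7% and 1.40%, and the ERR letters in 2.82% and 0.423%. At least 1 of the 4 stood in 40.8% and 12.5%. A match is a run of letters and not a binding site.

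**Figure D5:**
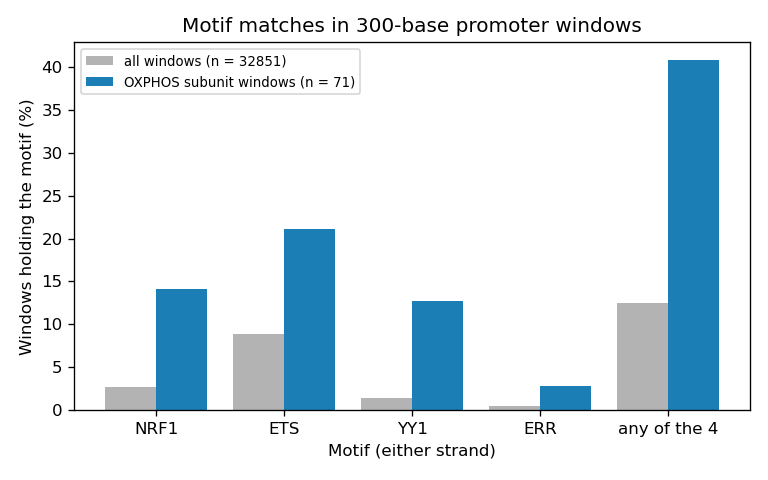
Share of 300-base promoter windows (%) that hold each motif on either strand, for the 71 windows of respiratory subunit genes and for all 32851 windows of the table. The share is larger among the respiratory genes for each of the 4 motifs, 40.8% against 12.5% for any of them.

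In E1-KO against E2-KO no respiratory gene was called in the fit of all 12 libraries, beside 0.596% of all genes; 6 genes had an unadjusted p below 0.05, DESeq2 called 0 and limma voom with a quality weight per library called 18, all lower in E1-KO, beside 9.57% of all genes. Lower and higher calls in the first fit made up 0.274% and 0.322% of all genes. The log2 fold change was below 0 for 63 of the 79 genes with a median of -0.15. All 3 E1-KO libraries lay below all 3 E2-KO libraries for 36 genes (45.6%), beside 19.0% of all genes, and above them for 3 (3.80%), beside 15.7%. Fitted on these 6 libraries alone, without the widely spread WT libraries, 28 genes were lower and 1 higher in E1-KO, beside 10.6% and 10.8% of all genes.

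The 36 genes came from complex I (13 of 36), III (5 of 9), IV (8 of 14) and V (10 of 16), and from complex II came none. Their log2 fold changes ran from -0.89 for Ndufa4l2 to -0.12 for Atp5b, with a median of -0.22. Atp5o, the stator subunit, showed the step without overlap: 143, 131 and 146 CPM in E1-KO against 173, 183 and 181 in E2-KO, a log2 fold change of -0.36 ± 0.11 (edgeR adjusted p = 0.187). Cox4i1 differed by -0.29 ± 0.18 (adjusted p = 0.619) and Ndufa10 by -0.33 ± 0.10 (adjusted p = 0.216). The exceptions with E1-KO above were the accessory subunit Ndufa3, the anchor Sdhd and Cox7a1, with 0.16, 0.18 and 0.21. With library totals alone, median-of-ratios scaling, or an allowance for GC content and length, 30, 33 and 26 genes had all E1-KO libraries below, choices made after the data were seen. The share of all genes was not counted under these scalings.

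In D-KO against E2-KO a single gene was called, Atp5s, lower, beside 4.48% of all genes called (1.84% higher and 2.64% lower). Atp5s encodes coupling factor B, a protein linked to the ATP synthase. It stood at 5.15, 4.05 and 3.60 CPM in D-KO and 7.61, 7.41 and 7.21 in E2-KO, a log2 fold change of -0.80 ± 0.19 (edgeR adjusted p = 0.0311), and the call was lost in 7 of the 12 fits without 1 library (adjusted p of at most 0.155). Without WT replicate 2 or 3, which enter only through the shared spread, 12 and 11 genes were called (15.2% and 13.9%, beside 16.8% and 14.4% of all genes). No respiratory gene was called without E1-KO replicate 1 or 3, any 1 of the E2-KO libraries, or D-KO replicate 2 or 3. The share of all genes is not given for those fits. All 3 D-KO libraries lay below all 3 E2-KO libraries for 30 genes (38.0%), beside 23.0% of all genes, and above them for 8 (10.1%), beside 22.8%. The median log2 fold change was -0.15. Under library totals alone 46 genes had all D-KO libraries below, but the share of all genes was not counted for that scaling. That scaling also moved the median log2 fold change of all genes from -0.015 to -0.079. With the 6 libraries alone 31 genes were lower and 6 higher, beside 18.3% and 19.0% of all genes.

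In D-KO against E1-KO the genes split evenly. The median log2 fold change was -0.02, and 7 genes were called, 4 higher and 3 lower in D-KO, beside 15.9% of all genes (8.43% higher and 7.52% lower). Ndufa10 rose by 0.55 ± 0.10 (edgeR adjusted p = 0.00303), in each of the 12 fits without 1 library. Atp5c1 and Ndufs8 rose by 0.33 ± 0.10 and 0.32 ± 0.09 (adjusted p = 0.0403 and 0.0319). Ndufb6, a membrane arm subunit, fell by 0.67 ± 0.22, Atp5s by 0.63 ± 0.19 and Sdhb by 0.38 ± 0.12 (adjusted p = 0.0499, 0.0402 and 0.0381). The calls of Atp5c1, Ndufs8, Ndufb6 and Sdhb were lost in 9 of the 12 fits and that of Atp5s in 8. Exons of Smim27 on the opposite strand cover 39.0% of the exonic bases of Ndufb6. D-KO libraries lay all above E1-KO for 23 genes (29.1%) and all below for 25 (31.6%), beside 27.3% and 27.1% of all genes. Without WT replicate 2 or 3, 16 and 23 genes were called (20.3% and 29.1%, beside 28.8% and 28.5% of all genes), and with the allowance for GC content and length the calls of Atp5c1 and Sdhb were lost. Leaving out any 1 of the E1-KO or E2-KO libraries, or D-KO replicate 2 or 3, gave 2 calls, and leaving out D-KO replicate 1 gave 3. The share of all genes is not given for these fits without a KO library.

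Among the short subunits the median level was lower in D-KO than in E1-KO. Median log2 fold changes of D-KO against E1-KO were -0.31 below 600 nt, -0.06 from 600 to 1000 nt and 0.08 above 1000 nt. Atp5k stood at 14.0, 11.6 and 8.77 CPM in D-KO against 23.2, 25.8 and 26.6 in E1-KO, and Ndufa2, an accessory subunit of the matrix arm, at 21.4, 18.0 and 18.5 against 33.9, 33.2 and 40.8. Neither was called (log2 fold changes -1.13 ± 0.74 and -0.90 ± 0.34, edgeR adjusted p = 0.331 and 0.0925), and both were named after their values were seen.

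Several subunits exist as tissue paralogs. Ndufa4l2, known from hypoxic cells as a paralog of Ndufa4, had the largest called difference of the 79 genes between KO genotypes. It stood at 1.99, 1.49 and 3.02 CPM for E1-KO, 3.11, 3.76 and 5.12 for E2-KO, and 8.88, 10.2 and 9.45 for D-KO, beside 4.94, 6.30 and 1.78 in WT. D-KO lay above every other library. The rise of D-KO against E1-KO was 2.13 ± 0.37 (edgeR adjusted p = 0.00198), in each of the 12 fits without 1 library. Against WT the gene rose by 1.09 ± 0.34 in D-KO and fell by 1.04 ± 0.39 in E1-KO (adjusted p = 0.0334 and 0.0494), calls that were lost in 4 and 10 of the 12 fits, and the D-KO call also with the allowance for GC content and length (0.72, adjusted p = 0.0757); without WT replicate 2 the E1-KO value was -0.66. D-KO against E2-KO, 1.24 ± 0.35, was not called (adjusted p = 0.0596). Its share of the pair with Ndufa4, each per kb, was 5.33% ± 0.43 (SD, n = 3) in D-KO, 3.06% ± 0.40 in WT, 1.22% ± 0.39 in E1-KO and 2.09% ± 0.65 in E2-KO.

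Cox6b2, the paralog of Cox6b1 known from testis, had a share of the pair with Cox6b1, each per kb, that was 26.8% ± 0.82 (SD, n = 3) in E1-KO, 26.9% ± 1.67 in E2-KO, 15.8% ± 0.50 in D-KO and 18.7% ± 6.96 in WT. The D-KO libraries, at 19.2, 19.9 and 18.4 CPM, lay below those of E1-KO at 33.3, 33.6 and 33.9 CPM and of E2-KO at 41.9, 41.7 and 34.7 CPM, without a call (edgeR adjusted p = 0.326 and 0.284). Cox4i2, the oxygen-responsive form of Cox4i1, took 0.255% to 0.546% of that pair. Cox7a1, the heart and muscle form, averaged 5.30 CPM in WT and 7.41 to 9.50 CPM in the KO genotypes, and no comparison called it; its share of the pair with Cox7a2 was 13.8% ± 5.77 (SD, n = 3) in WT, 20.9% ± 2.57 for E1-KO, 18.7% ± 1.43 for E2-KO and 17.9% ± 2.61 for D-KO. Cox7a2, the form of most tissues, and Cox7a2l, known for joining complexes III and IV into supercomplexes, were not called either. The subunit c genes Atp5g2 and Atp5g3 shared their output at 37.8% ± 3.64 Atp5g2 in WT and 45.1% to 48.7% in the KO genotypes, with the caution on near-identical copies given above.

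A pair of genes stood apart for other reasons. Uqcrc1, the partner of Uqcrc2 in the core of complex III, held 506, 60 and 26 counts in the WT libraries, 613, 51 and 35 for E1-KO, 1500, 29 and 1836 for E2-KO, and 30, 39 and 151 for D-KO. High and low libraries occurred within 3 genotypes, no comparison called it, and its SD of log2 CPM within the KO genotypes, 2.32, was the second largest of 10094 genes with a mean above 100 counts (rank 2). Ndufa12 had rank 21 with 0.58. Ndufs3, a core subunit needed for complex I, was listed at 0 counts in all 12 libraries, while its neighbours on chromosome 2, Kbtbd4 and Ptpmt1, held 0 and 2 counts in total; a value listed at 0 over neighbouring genes is given without reading the gene as silent.

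Other genes of the same organelle were counted from lists written from general knowledge, to be read beside all genes tested, of which 15.7% rose and 18.5% fell in E1-KO against WT, 16.7% and 18.6% in E2-KO, and 10.6% and 12.2% in D-KO. Of 50 assembly factors tested, which build the complexes without staying in them, 7 rose and 3 fell for E1-KO, 11 and 2 for E2-KO, and 4 and 3 for D-KO against WT, in all 20%, 26.0% and 14.0% of the list beside 34.2%, 35.3% and 22.8% of all genes. Acad9, an assembly factor of complex I, rose from 51.0 ± 2.87 CPM (SD, n = 3) in WT to 79.2 ± 1.56 for E1-KO, 94.6 ± 4.08 for E2-KO and 131 ± 7.62 for D-KO (log2 fold changes 0.64 ± 0.09, 0.89 ± 0.09 and 1.36 ± 0.09, edgeR adjusted p = 0.000204, 1.30e-05 and 6.10e-07). Cox20, a chaperone of complex IV assembly, fell from 10.9 ± 1.16 CPM to 2.02 ± 0.37, 0.681 ± 0.17 and 1.17 ± 1.26 (log2 fold changes -2.43 ± 0.42, -3.98 ± 0.53 and -3.21 ± 0.46, adjusted p = 0.000637, 4.54e-05 and 0.000205). Uqcc2, for complex III, rose by 0.86 ± 0.24 in E1-KO and 0.72 ± 0.24 in E2-KO (adjusted p = 0.0150 and 0.0336).

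Of 12 mitochondrially encoded subunits tested, 11 fell in E1-KO and 9 fell in E2-KO, while none was called in D-KO against WT (91.7%, 75.0% and 0% of the list beside 18.5%, 18.6% and 12.2% of all genes called lower); median log2 fold changes were -1.52, -1.15 and -0.58. Mitochondrial transcripts made up 3.50%, 1.94% and 5.88% of the counts in WT replicates 1 to 3, so their WT libraries were widest apart too, with replicate 3 the highest where the nuclear subunits were lowest. In D-KO against E1-KO 7 of the 12 rose, beside 8.43% of all genes. Of 13 genes of the tricarboxylic acid cycle, 5 fell in E1-KO, 2 fell in E2-KO, and 2 rose and 1 fell in D-KO, 38.5%, 15.4% and 23.1% of them beside 34.2%, 35.3% and 22.8% of all genes called; Fh1, fumarase, fell in all 3, by 0.62 ± 0.13, 0.62 ± 0.13 and 0.51 ± 0.13 (edgeR adjusted p = 0.00286, 0.00285 and 0.0123). Of 16 regulators of mitochondrial biogenesis 1 rose and 1 fell in E1-KO, and 2 rose in each of E2-KO and D-KO, 12.5% in each comparison beside the same shares of all genes. Esrra, the receptor ERR alpha, rose in E1-KO by 0.86 ± 0.29 (adjusted p = 0.0346), and Twnk, the mitochondrial DNA helicase, in D-KO by 0.47 ± 0.11 (adjusted p = 0.00646).

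Of 77 genes for mitochondrial ribosomal proteins, 7 rose and 8 fell for E1-KO, 17 and 3 for E2-KO, and 14 and 1 for D-KO, or 19.5%, 26.0% and 19.5% called beside 34.2%, 35.3% and 22.8% of all genes; their medians of 0.01, 0.19 and 0.17 had a median transcript length of 1316 nt behind them. Of 82 genes for cytosolic ribosomal proteins, with a median length of 882 nt close to that of the respiratory subunits, 5 rose and 4 fell, 12 and 2, and 5 and 1 (11%, 17.1% and 7.32% called), with medians of 0.13, 0.30 and 0.11. Of 17 genes for mobile carriers and coenzyme Q synthesis, 3 rose and 1 fell in E1-KO, 3 rose in E2-KO and 1 rose in D-KO (23.5%, 17.6% and 5.88% called).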

How the data were processed

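The RNA-seq read counts per gene were deposited by the authors as whole numbers, 1 table per library, with 52535 symbols each. Per the submitters' processing notes they name HISAT2 2.1.0, HTSeq 0.9.1, DESeq2 1.18.1 and the build mm10. What annotation and strand setting were used, and how reads with several matches were handled, is not given in the sources used here. Depth was 9101547 to 13007735 counts per library, and lines for reads without a gene, 1.11 to 1.20 times the counted reads, stayed out of totals and tests. ChIP and 4C samples were not analysed here, and some items are not reported here.

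Groups came from the genotype label. Genes kept by filterByExpr (16765, all 79 members among them) were scaled by TMM and fitted with edgeR 4.0.16 in R 4.3.3, a robust quasi-likelihood model with 1 coefficient for each genotype, all 12 libraries together. Fold changes are log2, with SE; p-values are Benjamini-Hochberg adjusted over all genes tested. The tagwise dispersion had a median of 0.0928 among the WT libraries and 0.00616 among the KO libraries, and 1 shared spread serves all 6 comparisons. Where a group was left with 2 libraries, the shared spread served as well. Alternatives were other scalings, DESeq2 1.42.0, limma 3.58.1 voom with library weights, no filter, 6 libraries, single libraries left out, a replicate block, and GC content and length trends removed. The fit was tested on simulated counts, with 100 genes changed at a log2 size of 1 and 100 at a size of 2. For E2-KO against WT, 69% and 100% of the changed genes were recovered, but 88 unchanged genes were called too, among 16456 genes. For D-KO against E2-KO, 73% and 99% were recovered and 0 unchanged genes were called, among 16444. The adjusted p-values against WT may thus be too small.

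Lengths and coordinates came from GENCODE M21 on GRCm38 by symbol (78 of 79 members), promoters from RefSeq GRCm38.p6. The members, the lists and the tests were chosen with earlier results of these data known. Named were the 4 largest called, non-overlapping rises and falls per comparison, the 2 highest members per kb in each complex, the paralog sets and the core subunits. Of the other lists, only some of the called genes with the smallest adjusted p in a comparison with WT are named.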

Additional observations from a re-analysis of the deposited data

How the results depend on the processing

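The counts of called respiratory genes depended on which libraries set the spread. Leaving out 1 library at a time, they ran from 3 to 43 in E1-KO against WT, 7 to 46 in E2-KO against WT, 2 to 32 in D-KO against WT, 0 to 4 in E1-KO against E2-KO, 2 to 23 in D-KO against E1-KO and 0 to 12 in D-KO against E2-KO; each maximum came without WT replicate 2 or 3. In that order of comparisons, the 6 libraries compared alone gave 1, 2, 1, 29, 47 and 37 calls, no filter on low counts gave 28, 36, 24, 2, 13 and 13, and voom gave 21, 22, 13, 18, 37 and 32. The share of all genes called moved with the fit too. Against WT it was 15.9%, 16.0% and 9.09% with the 6 libraries alone, and 51.1%, 51.9% and 40.9% without WT replicate 2. Counts printed here without that share are therefore not to be read as particular to the respiratory genes. Library totals alone gave 7 calls in E1-KO and 4 in D-KO against WT and 4 in D-KO against E1-KO. Under that scaling 46 genes in place of 30 had all D-KO libraries below E2-KO, with no share of all genes counted beside the 46. Without WT replicates 1 and 3 together, WT kept replicate 2 alone, so that fit holds no spread within WT and its calls are not given. The median log2 fold change of the respiratory genes against WT was then -0.12 for D-KO, 0.03 for E2-KO and -0.09 for E1-KO. DESeq2 gave 3 calls in D-KO against E2-KO. With GC content and length trends removed there were 1, 11 and 5 calls in E1-KO against E2-KO, D-KO against E1-KO and D-KO against E2-KO; Cox4i1 and Ndufs7 in E2-KO against WT reversed, to -0.0099 and -0.25.

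Replicate numbers did not pair the libraries: deviations of same-numbered libraries from their group means correlated between -0.0776 and 0.0823 over 18 pairs. With the replicate block the 6 comparisons gave 9, 17, 8, 0, 3 and 1 calls. The replicate block with GC content and length trends removed gave 4 calls in D-KO against E2-KO and -0.25 for Ndufs7 in E2-KO against WT. The next counts cover the called values of genes named by the rules above, without Ndufb9, Ndufc2, Ndufa6 and Atp5o. Of the fits without 1 library, 291 kept the call and 153 lost it, all in the same direction. Under the other alternatives 249 kept it, 110 lost it and the 3 above reversed. The cause was not tested. At these depths a member such as Cox4i2, with 162 counts over 12 libraries, allows no fine comparison.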
